A study of Homo sapiens with 18 samples.

Results

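The heat shock proteins and their activator HSF1 were followed as 10 genes, HSF1, HSPA1A, HSPA1B, HSPA8, HSP90AA1, HSP90AB1, HSPH1, DNAJB1, HSPB1 and HSPD1, which are 10 of the 28277 genes of the deposited count table and were taken by their symbols. The cells were OVCAR3, an established human ovarian cancer cell line, in which XIST, the noncoding RNA that silences one X chromosome in female cells, was repressed by CRISPR interference. All cells carried dCas9-KRAB, a nuclease-dead Cas9 fused to a repressor domain (OVCAR3-KRAB), and the control cells received a guide as well (sgCtl, sgControl in the labels). XIST knockdown (KD) cells carried either the guide sgXIST7 or the guide sgXIST9. Each guide was sampled in normoxia and after 24 h in a chamber at 1% oxygen (hypoxia), with 3 replicates per group, 6 groups and 18 total RNA libraries. The methods describe clonal cells for each guide, so that a guide and the clone that carried it cannot be told apart. The study calls the 3 libraries of a group biological replicates. Neither the labels nor the methods say what separates them, such as separate cultures, and p-values measure the spread between these libraries.

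Heat shock proteins are molecular chaperones that bind unfolded or newly made proteins and help them fold. HSF1 is the transcription factor of the heat shock response: chaperones hold it inactive in unstressed cells, and unfolded protein frees it to form trimers that bind heat shock elements in the promoters of chaperone genes. HSPA1A and HSPA1B are the neighbouring genes of the stress-inducible HSP70, HSPA8 makes the constitutive HSC70, and HSPH1 makes an HSP110 that exchanges nucleotide on HSP70. DNAJB1 is an HSP40 that hands clients to HSP70. HSP90AA1 and HSP90AB1 make the inducible and the constitutive cytosolic HSP90. HSPB1 makes HSP27, a small heat shock protein that needs no ATP, and HSPD1 makes HSP60, the chaperonin of the mitochondrial matrix. Cancer cells often depend on these chaperones, and low oxygen is a separate stress, read mainly through the hypoxia-inducible factors.

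Because HSF1 acts through heat shock elements, the promoter letters of the genes that encode its targets were examined first. RefSeq promoter windows (GRCh38.p14, 250 bases before to 50 bases from the transcription start on) were found for 9 of the 10 genes, as 15 windows for alternative starts, and none was found for HSF1. An exact 3-unit heat shock element, GAANNTTCNNGAA or its reverse complement TTCNNGAANNTTC, occurred in 4 windows, 1 for each of HSP90AA1, HSP90AB1, HSPA8 and HSPD1. Of all 35116 promoter windows in the table, 172 (0.49%) held it. The stretches around these elements are given 5′ to 3′ on the strand of the gene, with the element in capitals.
HSP90AA1, chr14:102087112-102087140, minus strand: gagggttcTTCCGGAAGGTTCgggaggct
HSP90AB1, chr6:44247770-44247798, plus strand: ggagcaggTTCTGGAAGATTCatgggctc
HSP90AB1, chr6:44247823-44247851, plus strand: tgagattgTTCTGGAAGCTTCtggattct
HSPA8, chr11:123062346-123062374, minus strand: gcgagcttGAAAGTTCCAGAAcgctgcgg
HSPA8, chr11:123062171-123062199, minus strand: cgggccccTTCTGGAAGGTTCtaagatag
HSPD1, chr2:197500065-197500090, minus strand: gcattTTCTGGAAAGTTCtggaaccg
HSPD1, chr2:197500060-197500088, minus strand: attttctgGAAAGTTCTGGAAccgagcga
The element of HSP90AA1 began 88 bases before the start site and the nearer one of HSPA8 began 55 bases before it. The pair in HSP90AB1 began 165 and 112 bases before the start, and the pair in HSPD1 overlapped itself, beginning 245 and 240 bases before. Each distance is to the start whose window held the element, for HSP90AA1, HSP90AB1 and HSPD1 an inner alternative start (chr14:102087044, chr6:44247943 and chr2:197499840). The windows of their outermost starts (102139749, 44246194 and 197500274) held no element, and the elements lie downstream of those starts. The windows of HSPA1A, HSPA1B, DNAJB1, HSPH1 and HSPB1 did not hold these exact letters, which says nothing of elements with a mismatch or outside the window. The hypoxia-inducible factor core ACGTG or CACGT was in 3 windows, 2 of HSP90AB1 and 1 of HSPD1, against 7518 of all windows (21.4%).

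The libraries held 11794375 to 24906936 counts (median 17629434). XIST checked the labels: it had 4213 to 11209 counts in sgCtl normoxia and 1589 to 5014 in sgCtl hypoxia, against 0 to 5 with sgXIST7 and 357 to 1009 with sgXIST9. Of 10 hypoxia-induced genes, 8, 9 and 9 rose past the threshold in sgCtl, sgXIST7 and sgXIST9 hypoxia. Of 8 ovarian epithelial markers, EPCAM (1787 to 5594 counts) and KRT18 were abundant, KRT8 had 56 to 779 counts and PAX8 was low (18 to 131), whereas KRT7, MUC16 and CDH1 had at most 4 counts in any library and WT1 at most 14, so that these defining markers of the labelled cell type were nearly absent. Of 8 markers of other cell types only CD68 passed 200 counts (202 to 1051), PTPRC and CD3E never passed 1, and the summed level of the 8 was 13.1 to 58.9 CPM (counts scaled to TMM-normalized library sizes). The 3 hypoxia replicate 3 libraries stood apart: the first principal component of the hypoxia libraries about their group means held 54.5% of the variance and placed them at 27.01 to 56.2 and the other 6 libraries at −35.4 to −1.12. Within each guide, replicate 3 was also the shallowest hypoxia library (12042716, 13483871 and 16208517 counts) and had the highest summed level of the hypoxia-induced genes (3158, 3738 and 3098 CPM, against 1808 to 3345 CPM in the other hypoxia libraries). Whether depth had a part in this was not tested, and results that rest on these libraries are given with and without them.

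Levels between genes were compared as CPM per kilobase of exon, as medians over the 18 libraries. For these levels alone, CPM was scaled to total counts without TMM. Differences between groups were read from TMM-normalized CPM instead. The constitutive chaperones and HSP90AA1 were among the most abundant RNAs of the cell: HSPA8 lay at 1392 CPM per kilobase (median rank 23 of 28277 genes), HSP90AB1 at 700.2 (rank 56), HSPD1 at 556 (rank 84.5) and HSP90AA1 at 337 (rank 138.5). These 4 genes held 91.4% to 96.3% of the summed CPM of the 10. DNAJB1 (50.9) and HSPH1 (31.0) came next, then HSF1 itself (19.5, rank 2959.5). The inducible HSP70 genes HSPA1A (1.88) and HSPA1B (1.65) and HSPB1 (0.498) were the lowest of the 10, at ranks 10854, 10969 and 13371. Each gene of this order was above the next in at least 15 of 18 libraries except at one place, since HSPA1A was above HSPA1B in 12.

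**Figure D1:**
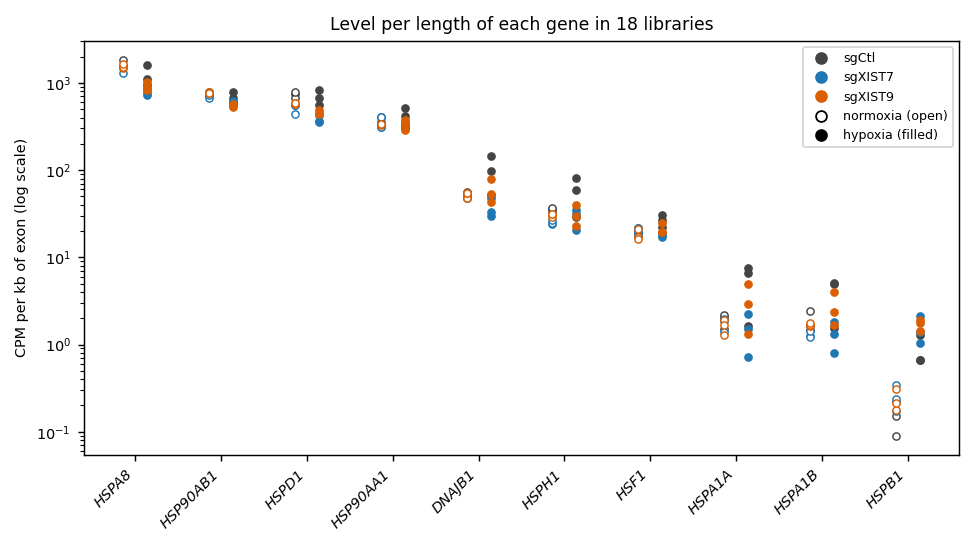
Level of each of the 10 genes in each of the 18 libraries, as CPM per kilobase of exon on a log axis, ordered by median. CPM is scaled here to total counts without TMM. Open circles are normoxia, filled circles hypoxia, and colours mark the guides. HSPA8 lies near 1392 and HSPB1 near 0.498, and the filled points of DNAJB1, HSPH1, HSPA1A and HSPA1B spread wider than the open ones.

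Part of this order may rest on where reads can be placed, which was not tested. HSPA1A (chr6:31815543-31817942, plus strand, 1 exon) and HSPA1B (chr6:31827738-31830254, plus strand, 1 exon) are near-identical copies, and 24.9% of the 50-base windows of HSPA1A and 28.4% of those of HSPA1B occur once on the main chromosomes of hg38. No window of either is unique once the alternate contigs are counted. Both genes are annotated on 5 contigs and HSF1 on 2, and with the deposited length, which adds these copies, the medians would be 0.376, 0.330 and 9.73 CPM per kilobase. The counts of HSPA1A and HSPA1B are therefore uncertain, both in size and in how reads are split between them. HSPD1 (chr2:197486584-197500274, minus strand) had 58.5% unique 50-base windows, and for the other 7 genes the share was 76.8% or more. On chr8:144291604-144314720 (plus strand), HSF1 shares 137 exonic bases with DGAT1 on the opposite strand, and HSP90AA1 (chr14:102080742-102139749, minus strand) shares 307 with WDR20. Exons of HSPD1 hold SNORA105A and SNORA105B, 116 bases each.

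Hypoxia raised 3 of the 10 genes in sgCtl cells: HSF1, DNAJB1 and HSPB1. In sgXIST7 cells HSPB1 rose and HSPA8 fell, and in sgXIST9 cells HSPB1 rose and HSPA8 and HSP90AB1 fell. The threshold throughout was an adjusted p under 0.01 by edgeR's quasi-likelihood test over all 14938 genes tested, and log2 fold changes are given ± their standard error, all 10 genes having passed the filter on low counts. HSPB1 passed that filter only through its hypoxia libraries. These 3, 2 and 3 of 10 stand beside 37.6%, 46.7% and 42.1% of all genes tested that passed the threshold in sgCtl, sgXIST7 and sgXIST9. All 3 calls in sgCtl were rises, beside 18.8% of all genes tested that rose there. The median log2 fold change of the 10 was 0.61 in sgCtl, 0.09 in sgXIST7 and 0.15 in sgXIST9, against 0.02, 0.01 and 0.09 over all genes tested. With 3 libraries against 3, the smallest p an exact permutation test of a single gene can give is 0.1. In bulk RNA, fewer cells of a type and less RNA per cell cannot be told apart.

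**Figure D2:**
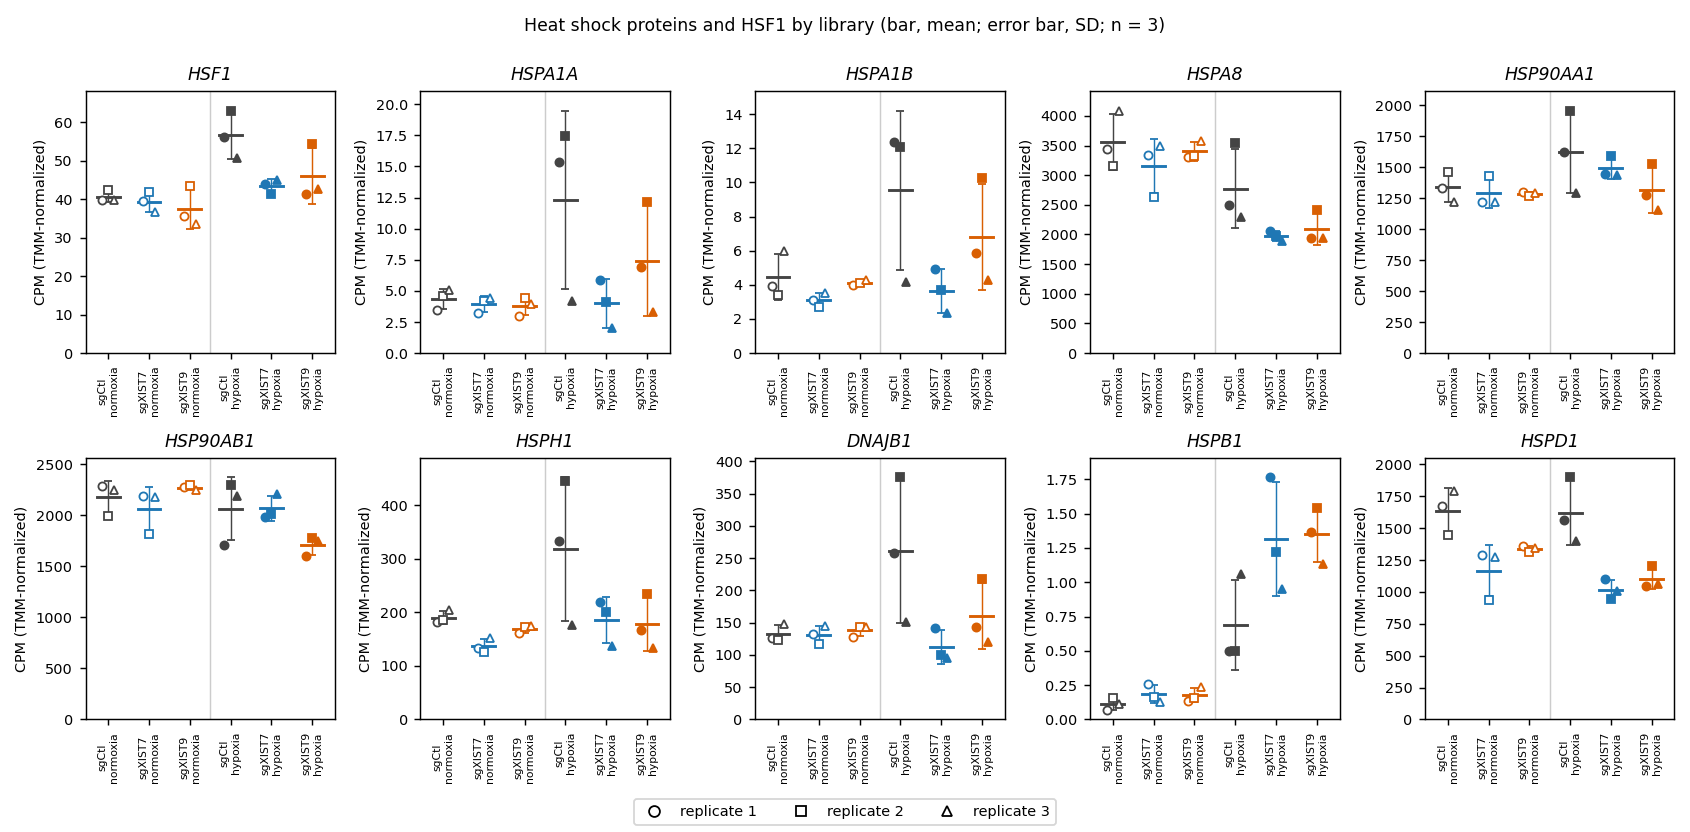
CPM of each gene in every library by group, with open symbols for normoxia, filled symbols for hypoxia, the symbol shape for the replicate, and a bar and error bar for the mean and SD of 3 libraries. In sgCtl hypoxia, replicates 1 and 2 of HSPA1A lie at 15.4 and 17.5 CPM and replicate 3 at 4.16 CPM, and HSPD1 is lower in both KD clones than in sgCtl at either oxygen level.

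HSF1, the regulator, was at 39.9, 42.2 and 39.7 CPM in the 3 sgCtl normoxia libraries and at 56.1, 63.0 and 50.6 CPM in sgCtl hypoxia. Every hypoxia library was above every normoxia library, and the log2 fold change was 0.48 ± 0.13 (adjusted p = 0.00427). The rise was there in replicate 3 too, at 1.25-fold over the normoxia mean beside 1.38-fold and 1.55-fold in replicates 1 and 2. In sgXIST7 cells HSF1 was at 39.5, 41.7 and 36.5 CPM in normoxia and 43.8, 41.4 and 44.9 CPM in hypoxia. The sgXIST9 libraries read 35.5, 43.3 and 33.5 CPM and 41.2, 54.3 and 42.5 CPM. Neither difference passed the threshold, with log2 fold changes of 0.14 ± 0.12 (adjusted p = 0.337) and 0.30 ± 0.12 (adjusted p = 0.0522). The call in sgCtl was lost on leaving out any of the 3 normoxia libraries or hypoxia replicate 1 or 2 (log2 fold change 0.40 to 0.50), as it was when only the sgCtl libraries were fitted (adjusted p = 0.0127).

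The inducible HSP70 system, HSPA1A, HSPA1B, HSPH1 and DNAJB1, showed one shared split between the sgCtl hypoxia libraries. HSPA1A was at 3.49, 4.56 and 5.05 CPM in sgCtl normoxia and at 15.4, 17.5 and 4.16 CPM in sgCtl hypoxia. HSPA1B read 3.96, 3.40 and 5.97 CPM in normoxia and 12.4, 12.1 and 4.16 CPM in hypoxia. In both genes hypoxia replicates 1 and 2 were above all normoxia libraries and replicate 3 lay among them. Over the normoxia mean, HSPA1A stood at 3.52-fold, 4.0-fold and 0.953-fold, and HSPA1B at 2.78-fold, 2.72-fold and 0.937-fold. Neither passed the threshold over 3 libraries, with log2 fold changes of 1.51 ± 0.48 (adjusted p = 0.0147) and 1.11 ± 0.38 (adjusted p = 0.0218).

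HSPH1 was at 181, 186 and 204 CPM in sgCtl normoxia and at 333, 445 and 177 CPM in sgCtl hypoxia, again with replicate 3 low, here just below the normoxia range, and the log2 fold change was 0.74 ± 0.25 (adjusted p = 0.0215). DNAJB1 was at 126, 123 and 148 CPM in normoxia and at 258, 376 and 151 CPM in hypoxia. Here replicate 3 was just above the highest normoxia library, and DNAJB1 alone of the 4 passed the threshold, with a log2 fold change of 0.98 ± 0.26 (adjusted p = 0.00446). That call was lost without sgCtl normoxia replicate 1 or 2 or hypoxia replicate 1 or 2 (log2 fold change 0.63 to 1.26 over all libraries left out in turn) and in the fit of the sgCtl libraries alone (adjusted p = 0.0235).

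Without replicate 3 in any group, all 4 genes passed the threshold in sgCtl, and 5 of the 10 genes did so in all. This fit rests on replicates 1 and 2 of each group. It leaves out the sgCtl hypoxia library in which these 4 genes were lowest. The added calls follow from that choice and are no separate support for a rise. The log2 fold changes were then 2.03 ± 0.31 (adjusted p = 8.62e-05) for HSPA1A, 1.73 ± 0.27 (adjusted p = 1.28e-04) for HSPA1B, 1.09 ± 0.17 (adjusted p = 9.49e-05) for HSPH1 and 1.35 ± 0.23 (adjusted p = 3.08e-04) for DNAJB1. HSF1 kept its call, and HSPB1, with its few counts, lost it at 2.14 ± 0.67 (adjusted p = 0.0151). All 5 were rises, beside 37.9% of all genes tested that passed the threshold in that fit and 19.3% that rose.

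In the KD clones the same 4 genes gave no call over 3 replicates. DNAJB1 was at 132, 117 and 145 CPM in sgXIST7 normoxia and 142, 100.3 and 94.6 CPM in sgXIST7 hypoxia, and at 128, 144 and 143 CPM and 144, 218 and 119.9 CPM in the sgXIST9 groups. All these groups overlapped between oxygen levels, and the log2 fold changes were −0.22 ± 0.26 (adjusted p = 0.472) and 0.22 ± 0.26 (adjusted p = 0.491). HSPA1A in sgXIST7 was at 3.24, 4.22 and 4.40 CPM in normoxia and 5.88, 4.12 and 1.99 CPM in hypoxia. In sgXIST9 it went from 2.99, 4.41 and 3.91 CPM to 6.88, 12.2 and 3.28 CPM, so that replicates 1 and 2 were again high and replicate 3 was not, with a log2 fold change of 0.99 ± 0.48 (adjusted p = 0.0873). HSPA1B in sgXIST9 hypoxia was at 5.88, 10.3 and 4.29 CPM against 4.02, 4.09 and 4.26 CPM in normoxia. Without replicate 3 in any group, HSPA1A and HSPA1B passed the threshold in sgXIST9, at 1.38 ± 0.30 (adjusted p = 0.00149) and 0.999 ± 0.26 (adjusted p = 0.00559), and HSPH1 did so in sgXIST7, at 0.70 ± 0.17 (adjusted p = 0.00257). Replicate 3 was the lowest hypoxia library for each of these, so these calls too follow from leaving it out. Of the 10 genes, 2 rose in sgXIST7 in that fit, and 3 rose and 1 fell in sgXIST9. These stand beside 42.5% and 40% of all genes tested that passed there. The HSPH1 libraries of sgXIST7 read 134, 126 and 151 CPM in normoxia and 218, 200.5 and 137 CPM in hypoxia.

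The constitutive HSP70, HSPA8, fell in both KD clones. In sgXIST7 it went from 3332, 2630.0 and 3499 CPM in normoxia to 2060.4, 1970.3 and 1894 CPM in hypoxia, and in sgXIST9 from 3299, 3325 and 3582 CPM to 1943, 2413 and 1941 CPM. The groups did not overlap in either clone, and the log2 fold changes were −0.68 ± 0.16 (adjusted p = 0.00130) and −0.70 ± 0.16 (adjusted p = 0.00115). Without replicate 3 in any group the value for sgXIST7 was −0.56 ± 0.17 (adjusted p = 0.0118), short of the threshold. The sgCtl libraries read 3435, 3158 and 4089 CPM in normoxia and 2492, 3541 and 2292 CPM in hypoxia and overlapped, with a log2 fold change of −0.36 ± 0.16 (adjusted p = 0.0623). Without sgCtl hypoxia replicate 2 alone it passed there too, at −0.57 (adjusted p = 0.00369).

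Of the HSP90 pair, HSP90AB1 fell in sgXIST9, from 2277, 2299 and 2245 CPM to 1601, 1782 and 1751 CPM, with no overlap and a log2 fold change of −0.41 ± 0.11 (adjusted p = 0.00552). This call was lost on leaving out any 1 of the 6 sgXIST9 libraries (log2 fold change −0.44 to −0.36), without replicate 3 in any group (−0.43 ± 0.15, adjusted p = 0.0240) and under upper-quartile scaling (−0.32, adjusted p = 0.0150). In sgXIST7 HSP90AB1 was at 2065 ± 213 CPM in normoxia and 2071 ± 121 CPM in hypoxia (mean ± SD, n = 3). In sgCtl the means were 2178 ± 158 and 2068 ± 310.0 CPM. HSP90AA1, the inducible form, was at 1333, 1459 and 1217 CPM in sgCtl normoxia and at 1624, 1954 and 1290.2 CPM in hypoxia, and its log2 fold change of 0.28 ± 0.14 (adjusted p = 0.0961) did not pass. Leaving out sgCtl hypoxia replicate 3 alone took it past, at 0.42 with adjusted p = 0.00849. In the KD clones HSP90AA1 stayed within 1153 to 1591 CPM in all 12 libraries.

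HSPB1 was close to the limit of detection in normoxia and higher in every hypoxia library. No normoxia library reached the filter's minimum count of 10, so HSPB1 was tested only because of its hypoxia libraries. Its calls for hypoxia are therefore not separate from the filter. Its counts were 1, 2 and 2 in sgCtl normoxia and 8, 10 and 12 in sgCtl hypoxia, 6, 3 and 3 and 37, 27 and 11 in sgXIST7, and 3, 3 and 4 and 30, 34 and 18 in sgXIST9. Per normalized library the ratio of hypoxia to normoxia was 5.72 (exact 95% interval 2.20 to 18.9) in sgCtl, 7.34 (3.96 to 14.8) in sgXIST7 and 8.0 (4.14 to 17.3) in sgXIST9, and these intervals cover counting error only. The fitted log2 fold changes were 2.499 ± 0.52 (adjusted p = 7.03e-04), 2.79 ± 0.40 (adjusted p = 1.63e-05) and 2.93 ± 0.41 (adjusted p = 1.62e-05). In sgCtl, HSPB1 gave no call when only the sgCtl libraries were fitted, nor without replicate 3 in any group. No groups overlapped between oxygen levels, and the 3 intervals overlap each other. HSPB1 (chr7:76302673-76304292, plus strand) is abundant in many carcinoma cells, but here its highest level in any library was 1.77 CPM.

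HSPD1, the mitochondrial chaperonin, did not pass the threshold for hypoxia in any guide. In sgCtl it was at 1636 ± 174 CPM in normoxia and 1622 ± 255.8 CPM in hypoxia (mean ± SD, n = 3). The log2 fold change was −0.20 ± 0.13 (adjusted p = 0.217) in sgXIST7 and −0.28 ± 0.13 (adjusted p = 0.0902) in sgXIST9. In the fit of the sgXIST9 libraries alone HSPD1 passed there, at −0.30.

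**Figure D3:**
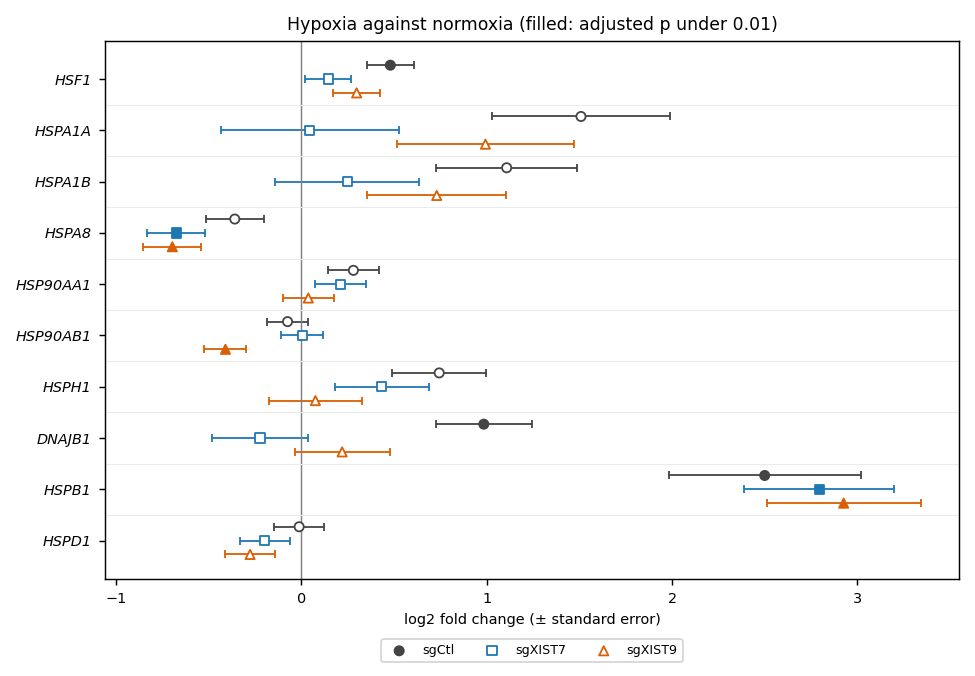
Log2 fold change of hypoxia against normoxia for each gene and guide, with bars for the standard error and filled symbols where the adjusted p was under 0.01. HSPB1 lies at 2.499, 2.79 and 2.93 in sgCtl, sgXIST7 and sgXIST9, HSPA8 at −0.36, −0.68 and −0.70, and DNAJB1 at 0.98 in sgCtl beside −0.22 and 0.22 in the KD clones.

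The KD comparisons asked whether loss of XIST changed these genes at a fixed oxygen level. In normoxia none of the 10 passed the threshold with edgeR in either KD clone against sgCtl, beside 13.5% (sgXIST7) and 13.1% (sgXIST9) of all genes tested. At an unadjusted p under 0.05 there was 1 gene in each, and DESeq2 called 1 with sgXIST7 and 0 with sgXIST9. The gene was HSPD1, which was at 1672, 1447 and 1790.2 CPM in sgCtl, 1289.7, 934 and 1276 CPM in sgXIST7 and 1358, 1312 and 1341 CPM in sgXIST9. Each KD library was below each sgCtl library, and the log2 fold change with sgXIST7 was −0.49 ± 0.13 (adjusted p = 0.0142), which passed without sgCtl hypoxia replicate 2 or 3. Between the KD clones in normoxia the count was also 0 with edgeR (background 4.97%), with 0 genes at an unadjusted p under 0.05 and 0 with DESeq2. The libraries of 4 of the 10 genes, HSPA1B, HSP90AB1, HSPH1 and HSPD1, were all lower in sgXIST7 than in sgXIST9, beside 20.3% of all genes tested, as with HSPH1 at 134, 126 and 151 CPM in sgXIST7 and 161, 172 and 174 CPM in sgXIST9.

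In hypoxia HSPA1B, DNAJB1 and HSPD1 were lower in sgXIST7 than in sgCtl, and HSPD1 was lower in sgXIST9 than in sgCtl. These 3 of 10 and 1 of 10 stand beside 27.6% and 17.9% of all genes tested. Of all genes tested 13.7% and 8.24% were called lower. Both comparisons use the same 3 sgCtl hypoxia libraries and are not independent. Of the 8 markers of other cell types 3 had enough counts to be tested, and with each guide COL1A1 was higher and DCN lower than in sgCtl. The 8 summed to 13.1 to 27.9 CPM in sgCtl hypoxia, 17.5 to 29.1 CPM in sgXIST7 and 20.1 to 29.1 CPM in sgXIST9, and their part in the result was not tested. KRT8, a keratin among the ovarian epithelial markers, was higher than in sgCtl with both guides, by log2 fold changes of 1.92 (adjusted p = 1.47e-06) and 1.89 (adjusted p = 1.51e-06) in normoxia and 2.56 (adjusted p = 9.11e-08) and 2.14 (adjusted p = 6.90e-07) in hypoxia, and its part in these results was not tested either. For HSPD1 the sgCtl libraries read 1566, 1902 and 1399 CPM, the sgXIST7 libraries 1099.6, 944 and 1007 CPM and the sgXIST9 libraries 1049, 1199.6 and 1062 CPM. All KD libraries lay below all sgCtl libraries, and the log2 fold changes were −0.67 ± 0.13 (adjusted p = 8.20e-04) and −0.56 ± 0.13 (adjusted p = 0.00481). The call with sgXIST7 held whichever library was left out, and the one with sgXIST9 was lost on leaving out 4 libraries in turn, sgCtl hypoxia replicate 1 or 2 and sgXIST9 hypoxia replicate 1 or 3. Neither was called when only the groups compared were fitted (adjusted p = 0.0213 and 0.0618).

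DNAJB1 in hypoxia was at 258, 376 and 151 CPM in sgCtl and at 142, 100.3 and 94.6 CPM in sgXIST7, without overlap, and its log2 fold change was −1.22 ± 0.26 (adjusted p = 0.00138). The call was lost without sgCtl hypoxia replicate 2 (log2 fold change −0.87) or sgXIST7 hypoxia replicate 3. Neither DNAJB1 nor HSPA1B was called with sgXIST7 when only the groups compared were fitted. HSPA1B in sgXIST7 hypoxia was at 4.92, 3.72 and 2.33 CPM against 12.4, 12.1 and 4.16 CPM in sgCtl. Those groups overlapped through sgCtl replicate 3, and the log2 fold change was −1.37 ± 0.38 (adjusted p = 0.00821), close enough to the threshold that leaving out any of 12 of the 18 libraries in turn lost the call. HSPA1A, with 5.88, 4.12 and 1.99 CPM in sgXIST7 against 15.4, 17.5 and 4.16 CPM in sgCtl, gave −1.61 ± 0.48 (adjusted p = 0.0125). It passed without sgCtl hypoxia replicate 3, sgXIST7 hypoxia replicate 1 or sgXIST9 hypoxia replicate 2 or 3. With the counts of both copies added, which removes the question of how reads were split between them, the log2 fold change was −1.50 (adjusted p = 0.00822). HSPH1 did not pass with either guide, at −0.78 ± 0.25 (adjusted p = 0.0206) and −0.84 ± 0.25 (adjusted p = 0.0191). DNAJB1 with sgXIST9 gave −0.71 ± 0.26 (adjusted p = 0.0479).

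The remaining genes gave no call in hypoxia against sgCtl over 3 replicates. HSF1 with sgXIST7 gave −0.38 ± 0.13 (adjusted p = 0.0205), which passed without sgCtl hypoxia replicate 3 or sgXIST9 hypoxia replicate 2, and HSPA8 with sgXIST7 −0.49 ± 0.16 (adjusted p = 0.0178). HSPB1 was the one gene on the higher side in both clones, at 1.01 ± 0.36 (adjusted p = 0.0312) and 1.04 ± 0.36 (adjusted p = 0.0366). All 4 named chaperones of the inducible HSP70 system were lower than sgCtl by their fitted values, with sgCtl replicates 1 and 2 high and replicate 3 low. Without replicate 3 in any group, 6 genes passed with sgXIST7 and 2 with sgXIST9, beside 31.5% and 20.6% of all genes. With sgXIST7 these were HSPA1A (−1.71 ± 0.29, adjusted p = 3.26e-04), HSPA1B (−1.50 ± 0.26, adjusted p = 3.96e-04), HSPH1 (−0.89 ± 0.17, adjusted p = 6.13e-04), DNAJB1 (−1.38 ± 0.22, adjusted p = 3.29e-04), HSPD1 (−0.76 ± 0.16, adjusted p = 0.00157) and, in the higher direction, HSPB1 (1.57 ± 0.41, adjusted p = 0.00622). With sgXIST9 they were HSPH1 (−0.96 ± 0.17, adjusted p = 5.32e-04) and HSPD1 (−0.63 ± 0.16, adjusted p = 0.00797). This fit leaves out the sgCtl hypoxia library in which HSPA1A, HSPA1B, HSPH1 and DNAJB1 were lowest, so it is no separate support for those calls. On leaving out sgCtl hypoxia replicate 3 alone, the counts were 8 and 5, beside 37.8% and 26.3% of all genes tested in that fit.

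**Figure D4:**
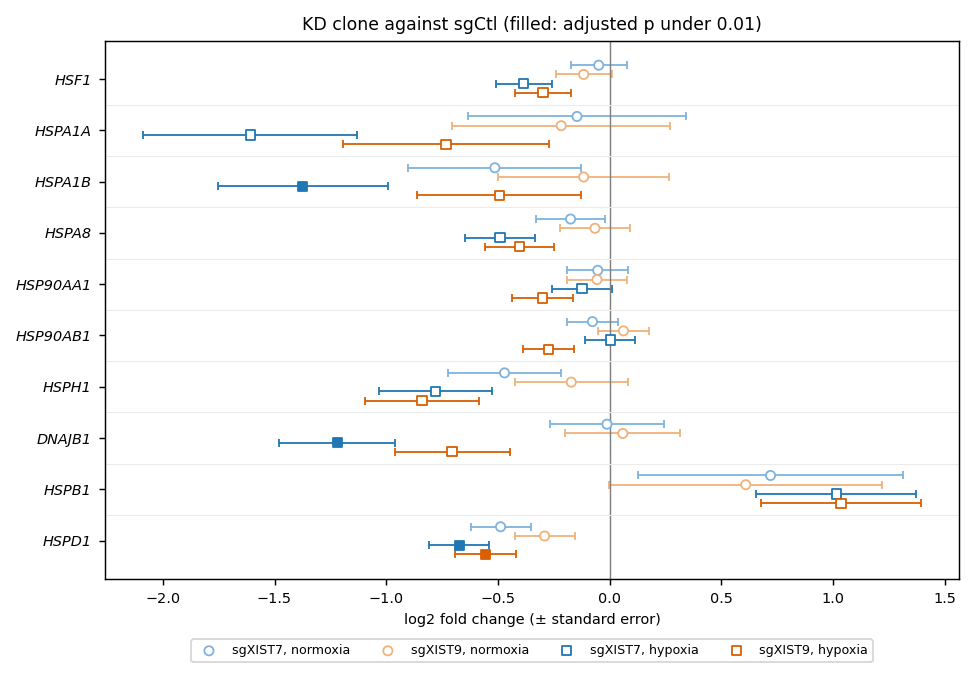
Log2 fold change of each KD clone against sgCtl, in normoxia (circles) and hypoxia (squares), with bars for the standard error and filled symbols where the adjusted p was under 0.01. The filled squares are HSPA1B (−1.37), DNAJB1 (−1.22) and HSPD1 (−0.67) with sgXIST7 and HSPD1 (−0.56) with sgXIST9, and no circle is filled.

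In the test of the difference itself, none of the 10 genes passed the threshold for a response to hypoxia unlike that of sgCtl, beside 2.17% (sgXIST7) and 1.26% (sgXIST9) of all genes tested by edgeR. At an unadjusted p under 0.05 there were 2 and 0 genes, and DESeq2 called 0 and 0. The nearest was DNAJB1 with sgXIST7, whose response was lower by a log2 difference of −1.21 ± 0.36 (adjusted p = 0.0472), and which passed at −1.48 without sgCtl hypoxia replicate 3 alone. With replicate 3 left out of the hypoxia groups alone, a choice made after these libraries were seen to stand apart, HSPA1A and DNAJB1 passed with sgXIST7, at −1.56 ± 0.36 (adjusted p = 0.00433) and −1.37 ± 0.27 (adjusted p = 0.00216). These 2 of 10 stand beside 16.2% of all genes tested in that fit. No gene passed with sgXIST9 there, and none passed with either guide without replicate 3 in any group. Between the KD clones in hypoxia none of the 10 genes passed by edgeR (background 8.43%), with 2 at an unadjusted p under 0.05 and 0 by DESeq2. That the rise of HSF1 and DNAJB1 passed the threshold in sgCtl and not in the KD clones is thus not a shown difference between them.

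Across the 6 groups the order of the means differed by gene. HSF1, HSPA1A, HSPA1B, HSP90AA1, HSPH1 and DNAJB1 were highest in sgCtl hypoxia, HSPA8 and HSPD1 in sgCtl normoxia, HSP90AB1 in sgXIST9 normoxia and HSPB1 in sgXIST9 hypoxia. Neighbours in these orders nearly always overlapped in their libraries. The exceptions were HSP90AB1 in sgXIST7 normoxia over sgXIST9 hypoxia, HSPH1 in sgXIST9 normoxia over sgXIST7 normoxia, HSPB1 in sgCtl hypoxia over sgXIST7 normoxia, and HSPD1 in sgCtl hypoxia over sgXIST9 normoxia and in sgXIST9 normoxia over sgXIST7 normoxia.

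Library by library, the inducible HSP70 genes varied in step. Over the 18 libraries, with the group means taken out, Pearson's r of log2 CPM was 0.95 between HSPH1 and DNAJB1, 0.95 between HSPA1A and HSPH1, 0.92 between HSPA1A and HSPA1B and 0.91 between HSPA1B and DNAJB1. Between HSPA8 and HSPD1 it was 0.91, and HSPA8 also followed DNAJB1 (0.82) and HSPH1 (0.75). HSF1 itself followed HSPA1A and DNAJB1 less closely, at 0.53 and 0.58. These values describe libraries that share group, depth and the stand-apart replicate 3, and for HSPA1A and HSPA1B also shared reads. Among all genes tested, the one most like each member over the 18 libraries (group means kept in) was MAPK13 for HSF1 (r = 0.915), DCAF4L1 for HSPA1A (0.967), CAMLG for HSPA1B (0.954), IMP4 for HSPA8 (0.961), ZNF296 for HSP90AA1 (0.899), RAN for HSP90AB1 (0.885), ZPR1 for HSPH1 (0.942), CTNS for DNAJB1 (0.957), ARMH1 for HSPB1 (0.974) and MAIP1 for HSPD1 (0.957). Among the next 2 of each gene were 3 chaperone genes, the HSP90 co-chaperones CHORDC1 for HSPH1 (r = 0.929) and AHSA1 for DNAJB1 (r = 0.954), and HSPE1 for HSPD1 (r = 0.945). HSPE1, the HSP10 lid of the HSP60 chamber, is the head-to-head neighbour of HSPD1 at chr2:197500379-197503449 on the plus strand. HSPE1 stood at 219 ± 30.0, 138 ± 36.3 and 171 ± 9.88 CPM in normoxia (sgCtl, sgXIST7, sgXIST9; mean ± SD, n = 3) and 186 ± 47.9, 98.8 ± 20.9 and 114 ± 27.2 CPM in hypoxia.

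Of 22 further genes known to respond to HSF1, 20 were tested, and hypoxia raised 9 and lowered 1 in sgCtl, raised 4 and lowered 1 in sgXIST7, and raised 4 and lowered 2 in sgXIST9. Of all genes tested, 18.8%, 23.5% and 23.1% rose and 18.8%, 23.2% and 19% fell in these comparisons. For the 20 genes, the median log2 fold change was 0.86, 0.26 and 0.35. In this and the next paragraphs on lists, a call is named only where the absolute log2 fold change was above 1. A gene not named for a guide may thus have passed there with a smaller change. In sgCtl the genes that rose included DNAJB4, an HSP40, at 2.53 (adjusted p = 2.86e-07), ZFAND2A, which helps clear damaged protein at the proteasome, at 1.43 (adjusted p = 5.33e-05), BAG3, the HSP70 co-chaperone of selective autophagy, at 1.14 (adjusted p = 8.72e-04), and RGS2, a regulator of G protein signalling, at 1.93 (adjusted p = 8.41e-04). BAG3 read 35.3, 37.2 and 43.7 CPM in normoxia and 80.6, 125 and 50.2 CPM in hypoxia. DNAJB4 rose in the KD clones as well, at 1.55 (adjusted p = 1.69e-05) and 2.07 (adjusted p = 1.19e-06), but was already higher in sgXIST7 than in sgCtl in normoxia, at 1.41 (adjusted p = 2.31e-04). SQSTM1, an autophagy receptor, rose in sgXIST7 (1.11, adjusted p = 2.74e-06) and sgXIST9 (1.04, adjusted p = 6.94e-06).

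Between clones in hypoxia, 6 of these 20 genes were lower and 0 higher in sgXIST7 than in sgCtl, and 2 were lower and 0 higher in sgXIST9, beside 13.7% and 8.24% lower of all genes tested. Leaving out 1 library gave 1 to 10 (sgXIST7) and 1 to 9 (sgXIST9) past the threshold, with the lower end without sgCtl hypoxia replicate 2 or sgXIST7 hypoxia replicate 3 (sgXIST7) and without sgCtl hypoxia replicate 2 or sgXIST9 hypoxia replicate 1 (sgXIST9), and the upper ends without sgCtl hypoxia replicate 3. Without sgCtl hypoxia replicate 1 or sgXIST7 hypoxia replicate 2 the count with sgXIST7 was 3 and 2. The medians were −0.41 and −0.45. DNAJA1, an HSP40 partner of HSC70, was the one past a 2-fold change, at −1.004 (adjusted p = 0.00144), and lost its call without sgCtl hypoxia replicate 2 or sgXIST7 hypoxia replicate 3. In the fit without replicate 3 in any group, 21 of the list were tested, hypoxia raised 13 in sgCtl, and 11 were lower in sgXIST7 and 6 in sgXIST9 hypoxia than in sgCtl, beside 19.3% higher in sgCtl hypoxia and 15% and 9.05% lower in the KD clones over all genes tested.

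Among 6 heat shock factors and regulators of HSF1, hypoxia raised 2 and lowered 1 in each guide. Over all genes tested, 18.8%, 23.5% and 23.1% rose and 18.8%, 23.2% and 19% fell in sgCtl, sgXIST7 and sgXIST9. HSF2, a factor that pairs with HSF1, fell in sgXIST7 (−1.04, adjusted p = 1.90e-07) and sgXIST9 (−1.05, adjusted p = 2.44e-07). HSF4 rose in sgXIST7 (3.83, adjusted p = 1.73e-04) and sgXIST9 (3.55, adjusted p = 4.37e-04), and in contrast to the inducible HSP70 genes it was highest in hypoxia replicate 3, at 9.81, 5.41 and 55.8 CPM in sgCtl, 28.4, 42.0 and 60.1 CPM in sgXIST7 and 21.2, 15.02 and 54.7 CPM in sgXIST9. IER5, which activates HSF1 by helping to remove its phosphates, rose in sgCtl (1.49, adjusted p = 0.00335) and was lower in sgXIST7 than in sgCtl in hypoxia (−1.72, adjusted p = 0.00176). IER5 read 103, 84.9 and 27.03 CPM in sgCtl hypoxia against 29.8, 22.2 and 24.8 CPM in normoxia, so that its replicate 3 stood with the normoxia libraries as in HSPA1A. Its call in sgCtl was lost on leaving out normoxia replicate 2 or 3 or hypoxia replicate 1 or 2, and its call in sgXIST7 against sgCtl without sgCtl hypoxia replicate 1 (−1.37) or sgXIST7 hypoxia replicate 2 (−1.63) or 3 (−1.58).

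Of 8 further HSP70 and HSP110 genes tested, 3 rose and 1 fell in sgCtl hypoxia, 1 rose and 2 fell in sgXIST7, and 2 rose and 4 fell in sgXIST9. These counts and those of the HSP40 genes stand beside 18.8%, 23.5% and 23.1% of all genes tested that rose. The shares that fell were 18.8%, 23.2% and 19%. HSPA13, an HSP70 of the secretory pathway, rose in sgCtl (1.09, adjusted p = 7.51e-06) and sgXIST7 (1.36, adjusted p = 4.19e-07). HSPA2, with counts of 2, 3 and 2 in sgCtl normoxia and 25, 60 and 2 in sgCtl hypoxia, gave 3.35 (adjusted p = 0.00435) and rests on replicates 1 and 2, and its call was lost without hypoxia replicate 2 or any 1 of the sgCtl normoxia libraries. HSPA12A, a distant HSP70 relative, was lower in sgXIST9 than in sgCtl in normoxia (−1.15, adjusted p = 1.45e-04) and rose in sgXIST9 hypoxia (1.03, adjusted p = 1.20e-04). Of 9 further HSP40 genes of classes A and B, 3 rose and 2 fell in sgCtl, 2 rose and 0 fell in sgXIST7, and 2 rose and 1 fell in sgXIST9. DNAJB2 rose in all 3 guides, at 2.75 (adjusted p = 2.90e-09), 2.22 (adjusted p = 1.22e-08) and 1.92 (adjusted p = 7.79e-08), and was lower in sgXIST9 than in sgCtl in hypoxia (−1.21, adjusted p = 2.56e-05). DNAJB6, an HSP40 that holds back aggregation of polyglutamine proteins, was lower in sgXIST7 than in sgCtl in normoxia (−1.19, adjusted p = 1.48e-04) and hypoxia (−1.77, adjusted p = 2.01e-06) and lower than in sgXIST9 at both, by −1.01 (adjusted p = 0.00158) and −1.07 (adjusted p = 8.03e-04). The call between the KD clones in normoxia was lost without sgXIST7 normoxia replicate 2 (−0.89) or 3 (−0.99) or sgXIST9 normoxia replicate 3 (−0.94).

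Of 3 further small heat shock proteins tested, HSPB7 rose in sgXIST7, with counts of 10, 5 and 6 in normoxia and 49, 69 and 34 in hypoxia (3.07, adjusted p = 3.71e-05). It was higher there than in sgCtl hypoxia, where its counts were 9, 6 and 2 (2.95, adjusted p = 1.90e-04). In sgCtl and sgXIST9 the count of the list past the threshold for hypoxia was 0 by edgeR and by DESeq2, with 2 and 1 genes at an unadjusted p under 0.05. By edgeR, 37.6%, 46.7% and 42.1% of all genes tested passed for hypoxia in sgCtl, sgXIST7 and sgXIST9.

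The 14 subunits of the cytosolic chaperonin and prefoldin, which fold actin and tubulin, fell in hypoxia or did not pass: 7 fell in sgCtl, 8 in sgXIST7 and 10 in sgXIST9, and none rose. Their median log2 fold changes were −0.41, −0.41 and −0.65. All 3 lists of this paragraph stand beside 18.8%, 23.5% and 23.1% of all genes tested that rose. The shares that fell were 18.8%, 23.2% and 19%. In the fit without replicate 3 in any group, 2, 7 and 9 of the 14 fell. There 37.9%, 42.5% and 40% of all genes tested passed in either direction. PFDN2 was the one past a 2-fold change, in sgXIST9 (−1.11, adjusted p = 1.05e-06). Of 21 HSP70 and HSP90 co-chaperones 4 rose and 3 fell in sgCtl, 2 rose and 6 fell in sgXIST7, and 0 rose and 4 fell in sgXIST9. FKBP5, an HSP90 co-chaperone of steroid receptors, fell in all 3 guides, at −1.73 (adjusted p = 1.10e-05), −1.33 (adjusted p = 8.48e-05) and −1.26 (adjusted p = 1.64e-04). Of 13 mitochondrial chaperones and proteases 3 rose and 3 fell in sgCtl, 2 and 2 in sgXIST7, and 2 and 3 in sgXIST9. LONP1, the matrix protease, rose in all 3 guides, at 1.32 (adjusted p = 1.44e-05), 1.603 (adjusted p = 1.10e-06) and 1.18 (adjusted p = 3.59e-05). GRPEL1, the nucleotide exchange factor of mitochondrial HSP70, rose in sgCtl (1.43, adjusted p = 1.03e-07) and sgXIST7 (1.43, adjusted p = 4.80e-08), while TRAP1, the mitochondrial HSP90, fell in sgCtl (−1.14, adjusted p = 6.04e-05) and sgXIST9 (−1.05, adjusted p = 9.94e-05).

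**Figure D5:**
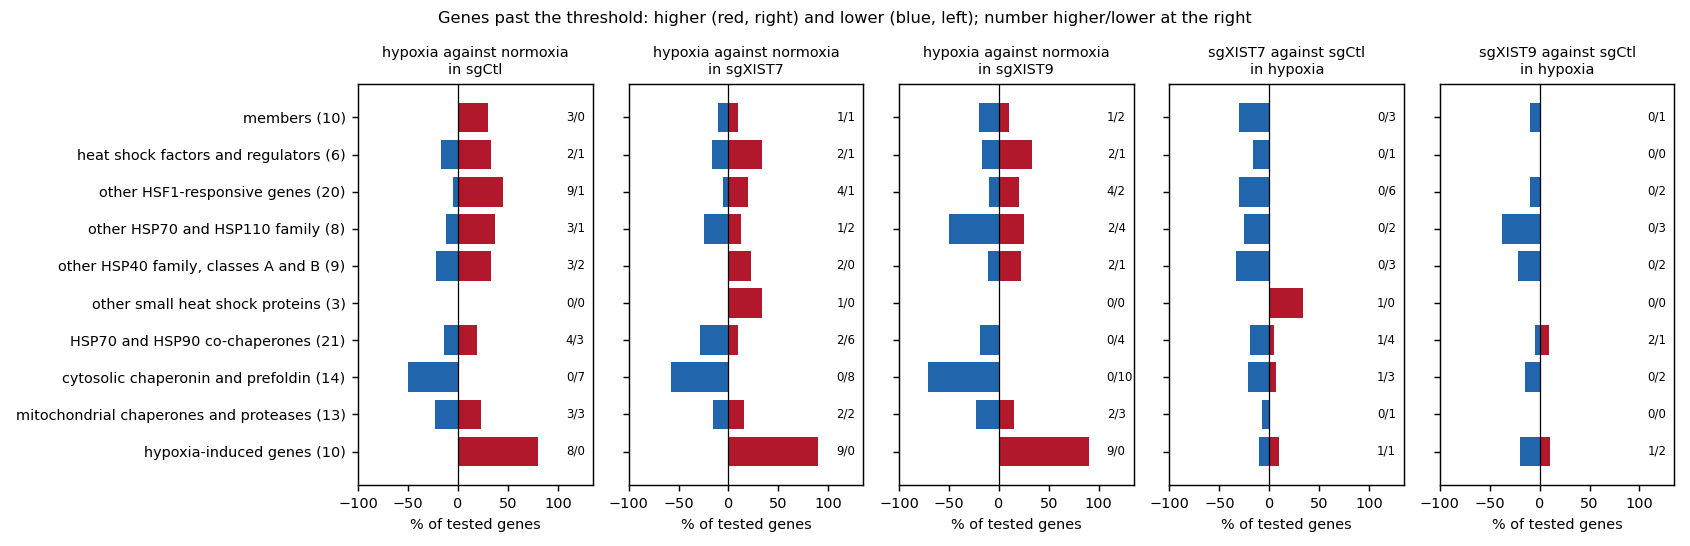
Share of the tested genes of each list that passed the threshold, higher to the right in red and lower to the left in blue, in 5 comparisons, with the numbers higher and lower printed at the right of each bar and the number tested beside each list name. Other HSF1-responsive genes reach 9 higher and 1 lower in sgCtl hypoxia and 0 higher and 6 lower in sgXIST7 against sgCtl in hypoxia, and the cytosolic chaperonin and prefoldin list has none higher in hypoxia in any guide.

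Between clones in hypoxia the other lists had few calls: 0 higher and 1 lower with sgXIST7 and 0 with sgXIST9 (1 at an unadjusted p under 0.05 and 1 by DESeq2) for the heat shock factors and regulators, 0 and 2 (sgXIST7) and 0 and 3 (sgXIST9) for the HSP70 and HSP110 family, and 0 and 3 (sgXIST7) and 0 and 2 (sgXIST9) for the HSP40 family. For the co-chaperones it was 1 and 4 (sgXIST7) and 2 and 1 (sgXIST9), for the cytosolic chaperonin and prefoldin 1 and 3 and 0 and 2, and for the mitochondrial list 0 and 1 (sgXIST7) and 0 by edgeR with sgXIST9, where 3 genes had an unadjusted p under 0.05 and DESeq2 called 3. For the small heat shock proteins with sgXIST9 it was 0, with 1 at an unadjusted p under 0.05 and 0 by DESeq2. The lists share genes with each other, and these counts stand beside 13.9% higher and 13.7% lower of all genes tested with sgXIST7 and 9.65% higher and 8.24% lower with sgXIST9.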

How the data were processed

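Total RNA of OVCAR3-KRAB cells was sequenced after stranded library preparation. The deposited values are counts per gene: per the methods, the authors trimmed reads with Trimmomatic, ran FastQC, took hg38 as the reference for hisat2, and assigned reads to genes with featureCounts. Versions, annotation release and strand setting are not given in the sources used here. The length column adds copies on alternate contigs, so levels between genes used main-chromosome exon length, a choice made after this was seen.

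The counts were normalized by TMM and fitted in 1 model of 6 groups, without a replicate block, with edgeR 4.0.16 (quasi-likelihood, robust; R 4.3.3), on 14938 of 28277 genes kept by filterByExpr (minimum count 10, total 15). The p-values were adjusted over all genes tested by Benjamini-Hochberg, with a threshold of 0.01. Depth was 11794375 to 24906936 counts, and 3 counts are 0.130 to 0.266 CPM. Alternatives were DESeq2 1.42.0, other scalings, filters and thresholds, only the groups compared, a replicate block, and leaving libraries out. Likeness was Pearson's r of log2 CPM (prior count 2). The fit was tested on simulated data. The members and gene lists were chosen with earlier results of these data known. List genes are named where they passed the threshold with an absolute log2 fold change above 1, at most 6 per list and comparison, or were given in counts. RefSeq windows and hg38 were used for sequence. One gene of the lists is counted in them but not reported here by name.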

Additional observations from a re-analysis of the deposited data

Results flagged for a closer look

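PFDN2 and CLPB, from lists that held 117 genes, were among the list genes whose response to hypoxia differed between sgXIST9 and sgCtl in the interaction test of edgeR. Of all genes tested, 1.26% passed that test. PFDN2, a prefoldin subunit, fell more in sgXIST9, by a log2 difference of −0.88 (adjusted p = 0.00778): its mean was 62.6 CPM in sgCtl normoxia and 53.5 CPM in sgCtl hypoxia, against 83.8 and 38.8 CPM in sgXIST9. CLPB, a mitochondrial disaggregase, differed by −0.82 (adjusted p = 0.00833), with 27.8 and 39.9 CPM in sgCtl against 38.9 and 31.6 CPM in sgXIST9. Every CLPB hypoxia library was above every normoxia library in sgCtl (log2 fold change 0.52) and in sgXIST7 and below them all in sgXIST9. Of all genes tested, 26.8% and 31.8% lay above in this way in sgCtl and sgXIST7, and 30.8% lay below in sgXIST9. Without replicate 3 in any group, none of the 14 chaperonin and prefoldin genes passed the interaction test with sgXIST9, so that the PFDN2 call was lost. Of the 13 mitochondrial chaperones and proteases 1 was called lower there, beside 3.67% of all genes tested in that fit. Whether that gene was CLPB is not stated here.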

How the results depend on the processing

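Counts of the 10 genes past the threshold moved with these choices. A count without the share of all genes under the same choice beside it cannot be read as particular to the 10 genes. By DESeq2 they were 6 for hypoxia in sgCtl, 1 for sgXIST7 against sgCtl in normoxia, and 7 (sgXIST7) and 2 (sgXIST9) against sgCtl in hypoxia. At an adjusted p under 0.05 they were 6, 1, 8 and 4, with 1 for the response of sgXIST7. With an absolute log2 fold change above 1 required, they were 1 for hypoxia in each guide and 0 for sgXIST9 against sgCtl in hypoxia. Of all genes tested, 19.7%, 27.3% and 23.3% passed so for hypoxia in sgCtl, sgXIST7 and sgXIST9, and 9.53% for sgXIST9 against sgCtl in hypoxia. With only the groups compared in the fit, they were 0 for hypoxia in sgCtl, 1 and 1 for the KD clones in normoxia, and 0 and 0 in hypoxia, where fewer libraries set the spread. A mean of at least 1 CPM removed HSPB1 and left 1 for hypoxia in sgXIST7. Without replicate 3 in any group they were 5 (sgCtl hypoxia), 6 and 2 (KD clones in hypoxia), beside 37.9%, 31.5% and 20.6% of all genes tested. Without replicate 3 in the hypoxia groups alone, chosen after seeing the data, they were 7 (sgCtl hypoxia), 5 (sgXIST9 hypoxia), 2 (sgXIST7 in normoxia), 8 and 4 (KD clones in hypoxia) and 2 (response of sgXIST7). The causes were not tested. Leaving out each library in turn gave 1 to 7 for hypoxia in sgCtl, 0 to 1 for sgXIST7 in normoxia, 1 to 8 and 0 to 5 for sgXIST7 and sgXIST9 in hypoxia, and 0 to 1 for the response of sgXIST7. The upper ends 7, 8 and 5 came without sgCtl hypoxia replicate 3. The sign turned in 4 log2 fold changes that passed in no such fit, HSP90AB1 in sgCtl hypoxia (−0.16 to 0.051), HSPA1B in sgXIST7 (−0.014 to 0.47), and HSPH1 (−0.17 to 0.25) and DNAJB1 (−0.061 to 0.40) in sgXIST9. Per length, main-chromosome exons put HSF1 at 19.5, HSPA1A at 1.88 and HSPA1B at 1.65 CPM per kilobase, against 9.73, 0.376 and 0.330 with the deposited length.

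Same-numbered libraries correlated at −0.07 to 0.57 in their deviations from group means, with 15 of 45 pairs over 0.1 (7 of 9 between hypoxia groups, with a median of 0.30, and 3 of 9 between normoxia groups). Since not every pair was over 0.1, the replicate numbers were not taken as pairs. With a replicate block, 5 of the 10 genes passed for sgXIST7 against sgCtl in hypoxia, HSF1 and HSPA1A being added, beside 32.1% of all genes tested, and no other member call changed. HSPB1, with 1 to 37 counts, is limited by depth. Over all alternatives, 273 counts for the 10 genes stayed within 1.5 times and 46 did not. Of the log2 fold changes of single genes, 2363 kept direction and side of the threshold, 76 passed it newly, 73 no longer passed it and 4 turned.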
